A study of Mus musculus with 2 samples.

Results

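Kruppel-like factors are transcription factors with zinc fingers at the C-terminal end, and 10 of them were followed in mouse osteoclast precursors (Klf2, Klf3, Klf4, Klf6, Klf7, Klf9, Klf10, Klf11, Klf13 and Klf16). The members were taken by name, as the array genes of the deposited table whose name equals that of a member, which held for 6 of 31492 array genes (KLF2, KLF3, KLF4, KLF7, KLF13 and KLF16). The other 4 members were on the array under names that RefSeq lists as their synonyms. These are COPEB for Klf6, BTEB1 and 2310051E17Rik for Klf9, TIEG and TIEG1 for Klf10, and TIEG3 for Klf11. A further row for Klf13 was listed as 9430029L20Rik, so that 13 array rows stood for the 10 genes. RIKEN clone names are written here with the capitals of RefSeq. The cells were from bone marrow of C57BL/6 mice aged 8 weeks and had been sorted as negative for CD3 and CD45R (T and B cell markers), low or negative for the integrin chain CD11b, and positive for CD115, the receptor of M-CSF. Both groups were kept for 3 days in M-CSF at 30 ng/ml, the macrophage growth factor on which these cells depend. The second group also received 30 ng/ml of RANKL, a cytokine of the TNF family that drives osteoclast formation, and RNA came from the adherent cells of each culture. Each group is the authors' mean of 3 biological replicates on separate Illumina arrays, deposited with the SD between arrays.

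Kruppel-like factors bind GC-rich DNA such as the CACCC box, and most differ outside the fingers in the cofactors they recruit. Klf2, Klf4, Klf6 and Klf7 are often grouped as activators, Klf3 represses through the corepressor CtBP, and Klf9, Klf10, Klf11, Klf13 and Klf16 bind the corepressor Sin3A. In the myeloid lineage Klf4 is known for its part in making monocytes and Klf2 for keeping monocytes and endothelial cells quiescent.

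The labelled cells were checked against markers. With RANKL, 7 of 7 tested osteoclast markers were higher, and their list (8 genes) summed to an intensity of 157750 against 1886 with M-CSF alone. Of 11 monocyte and macrophage markers, 10 were lower and 1 did not pass, with summed intensities of 196174 and 58172 for M-CSF and RANKL. Markers of sorted-out lineages were mostly not detected, since 1 of 7 B cell genes and 1 of 8 T and NK cell genes were tested, and Cd3e, Cd3d and Cd3g were detected in neither group. Granulocyte genes were present in both cultures, with summed intensities of 20649 and 15393, and 2 of 7 tested were called lower with RANKL. Levels are normalized intensities, written as mean ± SD of 3 replicates. An array gene was tested if its detection p was under 0.01 in at least 1 group, and called at an adjusted p under 0.05 in a limma moderated test across all tested genes.

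Adding RANKL lowered most of the detected Kruppel-like factors and raised Klf9. Of the 6 rows found by name, 5 were lower with RANKL (Klf2, Klf3, Klf7, Klf13 and Klf16), 0 were higher, and Klf4 missed the threshold. Over the 11012 array genes tested, 57.8% were called, 29.0% as lower and 28.9% as higher, so that being called is common in this comparison. With the older names, 10 of 13 rows passed the filter, made up of 7 lower rows, 2 higher rows (both Klf9) and that of Klf4. The 3 rows of Klf10 and Klf11 were not detected. The median log2 fold of the 6 rows was -0.80, and that of the brightest row of each of 8 tested members was -0.64, against -0.0025 over all tested genes. In bulk RNA a lower signal from fewer cells that hold a transcript cannot be told apart from less transcript per cell. The falls stand beside the loss of macrophage markers given above, and the part of that shift in them was not tested.

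The spread of 3 replicates allows a bound on overlap. If the deposited SD was taken over the 3 arrays, no replicate can lie more than 1.41 SD from its mean. By this bound the replicates of the 2 groups could not overlap for 5 of the 6 rows found by name, all lower with RANKL. The same held for 50.8% of tested genes in either direction and 24.9% as lower. Klf4 was the row whose ranges could meet.

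**Figure D1:**
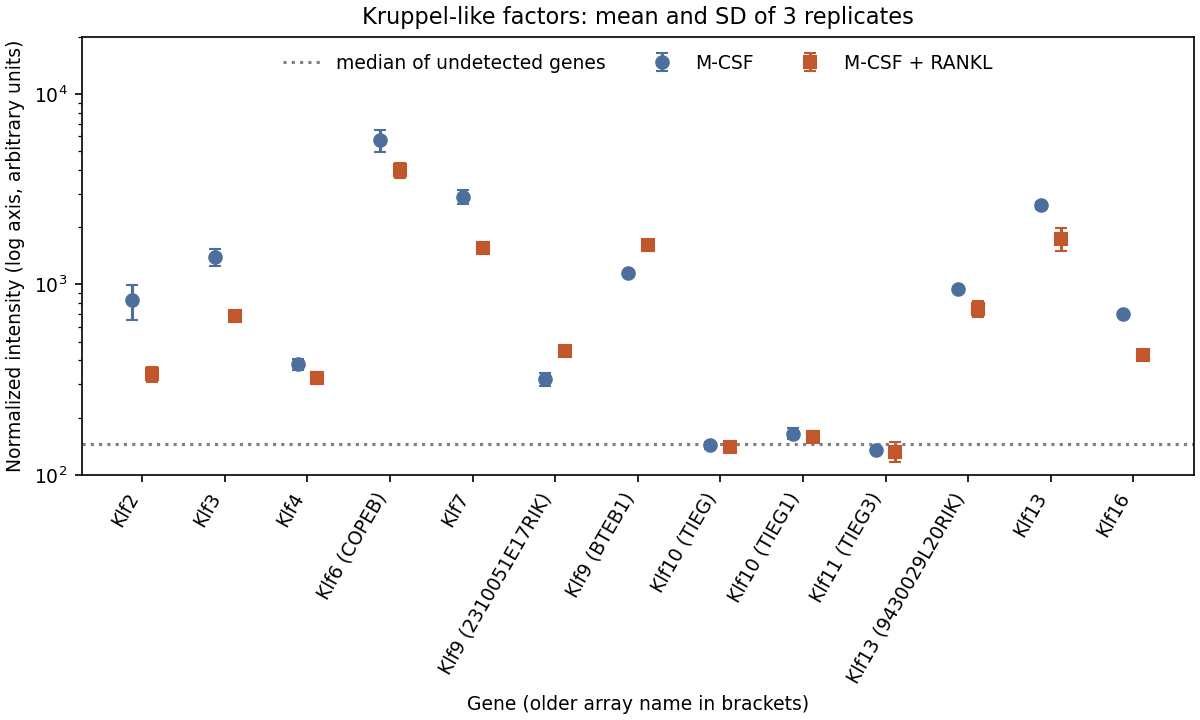
Normalized intensity (log axis) of the 13 array rows of the 10 Kruppel-like factors, as mean with SD of 3 replicates, with M-CSF (circles) and with M-CSF + RANKL (squares). The dotted line is the median of genes not detected with M-CSF, 145. Klf10 and Klf11 lie near it in both groups, and Klf9 is the gene whose RANKL points lie above its M-CSF points.

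RefSeq promoters were found for 8 of the 10 members (GRCm38.p6, from 250 bases before to 50 after the start of the gene). Klf10 and Klf16 were not matched. The 250 bases before the start are shown for Klf2 and Klf3, whose falls were the largest, and for Klf9, which rose. Capitals mark CACCC on either strand (GGGTG on the printed one) and, once in Klf2, a loose form of the MEF2 element (CTA, then 4 bases of any kind, then TAG).
Klf2: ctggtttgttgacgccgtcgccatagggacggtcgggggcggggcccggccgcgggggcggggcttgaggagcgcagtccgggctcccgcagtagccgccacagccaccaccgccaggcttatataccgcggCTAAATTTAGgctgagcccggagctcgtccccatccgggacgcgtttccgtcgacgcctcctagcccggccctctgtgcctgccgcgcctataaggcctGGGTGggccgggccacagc
Klf3: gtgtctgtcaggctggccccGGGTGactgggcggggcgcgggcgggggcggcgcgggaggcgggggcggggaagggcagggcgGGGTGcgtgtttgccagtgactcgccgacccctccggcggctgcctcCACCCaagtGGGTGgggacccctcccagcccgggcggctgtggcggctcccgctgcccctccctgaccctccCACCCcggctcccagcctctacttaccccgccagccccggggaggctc
Klf9: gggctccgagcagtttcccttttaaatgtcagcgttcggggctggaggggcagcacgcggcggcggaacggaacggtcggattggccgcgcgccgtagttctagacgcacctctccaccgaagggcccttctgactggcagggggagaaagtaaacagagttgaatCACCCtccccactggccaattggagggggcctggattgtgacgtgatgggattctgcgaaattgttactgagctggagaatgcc
The stretches are chr8:72318812-72319061, chr5:64803271-64803520 and chr19:23140976-23141225, all on the plus strand. All letters were searched on both strands. In the whole window of 300 bases, Klf3 held 5 matches of CACCC, a number reached by 1.02% of 32851 RefSeq promoters. Klf7 held 3, which 9.35% of promoters reached, and Klf2, Klf9 and Klf13 held 1 each, where 57.5% of promoters held at least 1. Klf4, Klf6 and Klf11 held 0. The match of this MEF2 element in Klf2 was the only one among the 8 members, and 3.69% of promoters held one. GGGCGG, the GC box that Sp1 binds, was found in 7 of the 8 and in 35.7% of promoters, at 6 matches in Klf3 and 0 in Klf9. TGANTCA, a loose form of the AP-1 letters, matched in Klf9 alone, at a place that overlaps its CACCC, and in 7.81% of promoters. GGAAA, the core bound by NFAT factors, matched in Klf2, Klf6 and Klf9 and in 61.3% of promoters. Klf2, Klf3 and Klf9 have GC contents of 69.3%, 76.7% and 63.3%, above the median of 52.7%, and such letters depend on base composition. A match is a description of these windows and shows no binding.

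Among the factors grouped as activators, Klf2 fell the most. Klf2 read 824 ± 174 with M-CSF and 338 ± 30.7 with RANKL. Its replicates lay between 577 and 1069.9 in the first group and between 295 and 381 in the second by the bound above, so the groups do not overlap. The 2.44-fold fall (log2 -1.28 ± 0.14 SE, 95% interval -1.60 to -0.97) had an adjusted p of 1.07e-05 in limma. The SD with M-CSF was 21.1% of the mean, against a median of 6.89% over all array genes. In a test of the linear means without moderation the adjusted p of Klf2 was 0.0806, and over all settings it ran from 2.46e-06 to 0.0806.

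Klf4, the closest relative of Klf2 among these factors and also one of the factors used to reprogram cells to pluripotency, changed less. Klf4 read 381 ± 24.6 with M-CSF and 323 ± 25.0 with RANKL. The bound allows its replicates to reach from 347 to 416 and from 288 to 359, ranges that meet. Its log2 fold of -0.24 ± 0.10 SE (95% interval -0.45 to -0.02) did not pass, at an adjusted p of 0.0555 in limma and 0.0511 to 0.423 over all settings. The interval holds falls of up to 0.45 on the log2 scale, and missing the threshold does not show that Klf4 was unchanged. The intervals of Klf2 and Klf4 do not meet, although the difference between them was not tested. Klf4 read 236 above the background of 145 with M-CSF and 178 above it with RANKL. After subtraction of background its log2 fold was -0.41.

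Klf6 and Klf7 are near relatives of each other, known for roles in inflammatory macrophages and in neurons. Klf6, under the name COPEB, read 5730.2 ± 749 with M-CSF and 3983 ± 364 with RANKL. Its replicates could not overlap by the bound, with a lowest possible value of 4671 with M-CSF and a highest of 4498 with RANKL. The fall was 1.44-fold (log2 -0.52 ± 0.11 SE, adjusted p = 0.00164 in limma). Doubling both SDs raised the adjusted p to 0.107, and in the unmoderated test of linear means it was 0.0825, within a range over all settings from 0.00163 to 0.107. Klf7 read 2886 ± 237 with M-CSF and 1552 ± 87.7 with RANKL, with no overlap. It fell 1.86-fold (log2 -0.89 ± 0.10 SE, adjusted p = 1.06e-05 in limma) and was called under each of the 10 settings.

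Klf3, the repressor that works through CtBP, showed the second largest fall. Its promoter holds the most CACCC matches among the members searched, and a link with the fall was not tested. Klf3 read 1399 ± 143 with M-CSF and 685 ± 21.8 with RANKL. The RANKL replicates lay at or under 716 and those with M-CSF at or above 1198 by the bound. The fall was 2.04-fold (log2 -1.03 ± 0.10 SE, 95% interval -1.26 to -0.80, adjusted p = 4.63e-06 in limma) and was called under each of the 10 settings. Klf2 and Klf3 were the members that fell at least 2-fold, as did 7.01% of tested genes.

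The factors that bind Sin3A were divided. Klf9, which glucocorticoid and thyroid hormone induce in many tissues, rose on both of its rows. BTEB1 read 1146 ± 29.5 with M-CSF and 1603 ± 63.4 with RANKL. The row 2310051E17Rik, which RefSeq also assigns to Klf9, read 318 ± 25.4 and 449 ± 9.81. Neither row's groups could overlap. The folds were 1.40 (log2 0.48 ± 0.09 SE, adjusted p = 0.000779 in limma) and 1.41 (log2 0.50 ± 0.09 SE, adjusted p = 0.00074 in limma), so both rows of the gene gave nearly the same value. They were read on the same arrays and are not separate replicates. With both SDs doubled the adjusted p was 0.0744 for BTEB1 and 0.0726 for 2310051E17Rik, the highest over their settings, whose lowest were 0.000474 and 0.000668. Taking off the background gave log2 folds of 0.54 for BTEB1 and 0.82 for 2310051E17Rik. The promoter of Klf9 printed above has no GGGCGG, and a link with its rise was not tested.

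Klf13 and Klf16 went the other way. Klf13, which in T cells activates the chemokine gene Ccl5, read 2602 ± 112 with M-CSF and 1739 ± 233 with RANKL on the row of that name. It fell 1.496-fold (log2 -0.58 ± 0.11 SE, adjusted p = 0.00079 in limma). The row 9430029L20Rik of Klf13 read 949 ± 21.2 and 744 ± 70.6, a fall of 0.35 on the log2 scale (± 0.10 SE, adjusted p = 0.0114 in limma). Both rows fell without possible overlap, and the 95% intervals of their log2 folds, -0.82 to -0.34 and -0.57 to -0.13, overlap. With both SDs doubled the adjusted p was 0.075 for KLF13 (range 0.000782 to 0.075) and 0.242 for 9430029L20Rik (range 0.00802 to 0.242), and in the unmoderated test of linear means the latter was at 0.069. Klf16, first described as a regulator of dopamine receptor genes, read 697 ± 7.07 and 428 ± 20.7. Its fall of 1.63-fold (log2 -0.70 ± 0.09 SE, adjusted p = 4.02e-05 in limma) was called under each of the 10 settings. The groups of Klf16 could not overlap by the bound, with SDs of 1.01% of the mean with M-CSF and 4.85% with RANKL.

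Klf10 and Klf11, known as TGF-beta-inducible early genes, were at background. TIEG1, the brighter row of Klf10, read 165 ± 11.0 with M-CSF and 158 ± 11.4 with RANKL. TIEG read 143 ± 6.40 and 140.2 ± 8.05, and TIEG3 (Klf11) read 136 ± 3.49 and 132 ± 16.0. Detection p-values of the 3 rows were between 0.114 and 0.797, so no fold is given. Not being detected here says that these probes read no signal above background, not that the genes were silent.

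**Figure D2:**
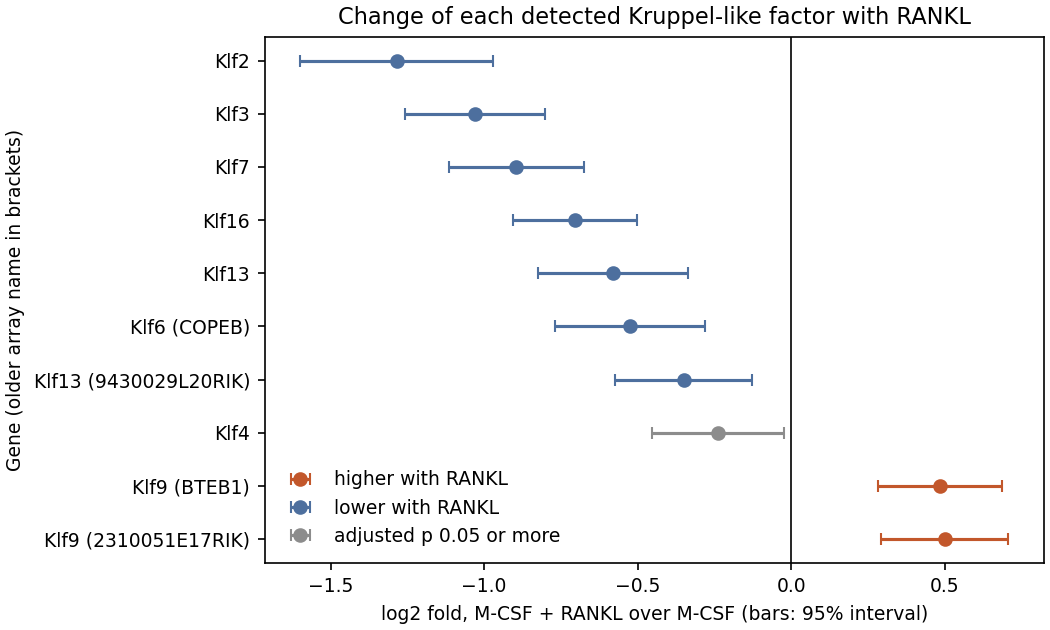
Log2 fold (M-CSF + RANKL over M-CSF) with its 95% interval for the 10 tested rows of Kruppel-like factors, ordered by fold. The rows run from -1.28 for Klf2 to 0.50 for 2310051E17Rik (Klf9), and Klf4 is the row that did not pass.

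Ordered by log2 fold, the detected members ran from Klf2 (-1.28) through Klf3 (-1.03), Klf7 (-0.89), Klf16 (-0.70), Klf13 (-0.58), Klf6 (-0.52) and Klf4 (-0.24) to Klf9 (0.48). Neighbours in this order had overlapping 95% intervals, except Klf4 and Klf9. Their place among all tested genes shows how large the changes were. A larger fall than that of Klf2 was seen in 4.54% of tested genes, than that of Klf3 in 6.61% and than that of Klf7 in 8.50%. For Klf6 the share was 16.7% and for Klf4 30.8%. The log2 fold of BTEB1 (Klf9) was above that of 82.5% of tested genes.

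**Figure D3:**
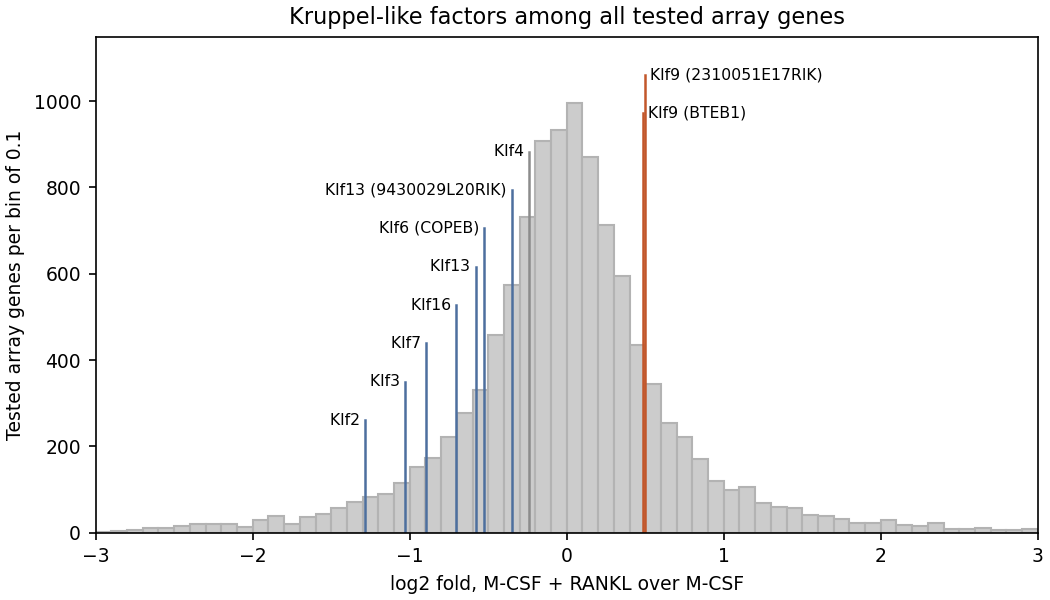
Distribution of log2 folds (M-CSF + RANKL over M-CSF) over tested array genes in bins of 0.1, cut at 3 on either side, with the 10 tested rows of Kruppel-like factors as vertical lines of arbitrary height. The lines of Klf2, Klf3 and Klf7 stand in the lower tail, with 4.54%, 6.61% and 8.50% of tested genes below them, and both lines of Klf9 stand right of 0.

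The size of the folds depended on how background was treated, since it was not set to 0 in the deposited values. Subtracting it took the log2 fold of Klf2 from -1.28 to -1.81, that of Klf16 from -0.70 to -0.96 and that of Klf3 from -1.03 to -1.21. Brighter rows moved little, with Klf6 going from -0.52 to -0.54 and Klf13 from -0.58 to -0.62. A pseudocount of 50 moved Klf2 to -1.17. No tested row changed direction, but these scalings could hardly reverse one. A pseudocount cannot reverse a fold, and the backgrounds with M-CSF and RANKL were nearly equal (145.04 and 144.86). The median log2 fold used for centring was -0.0025.

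**Figure D4:**
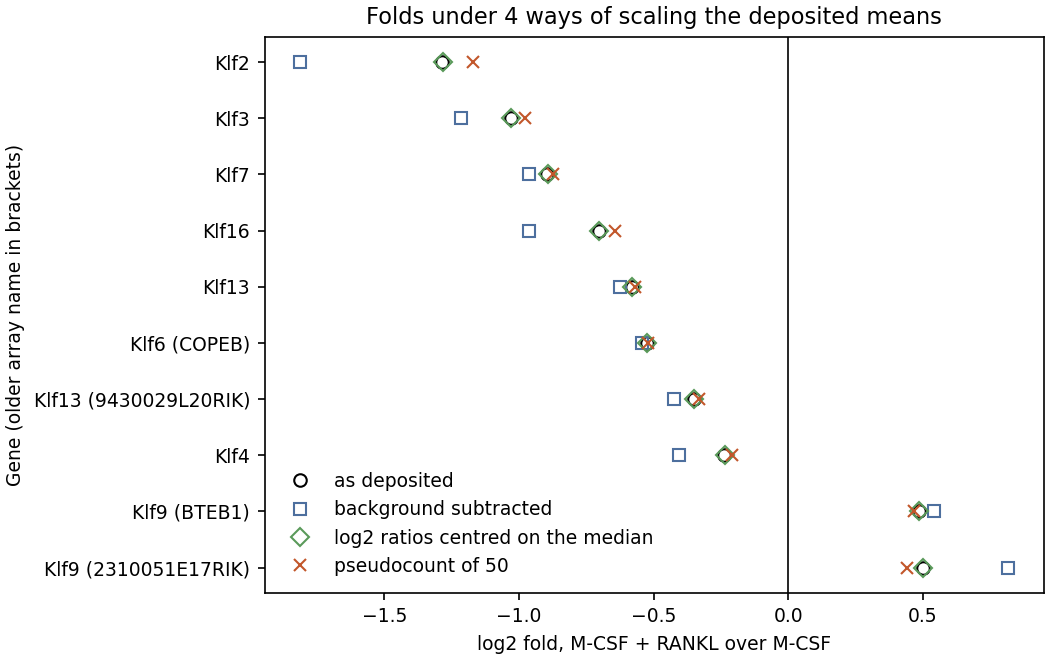
Log2 folds (M-CSF + RANKL over M-CSF) of the 10 tested rows with the means as deposited (circles), with background subtracted (squares), centred on the median gene (diamonds) and with a pseudocount of 50 (crosses). Subtracting background moves Klf2 from -1.28 to -1.81 and Klf6 from -0.52 to -0.54. Each row stays on its side of 0, which these scalings could hardly change.

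The rest of the family was mostly at background. Of 16 further Klf and Sp genes, all on the array, 3 were tested. With RANKL 2 of them were lower, 0 were higher, and Sp7 (209 and 199) missed the threshold, and the median log2 fold was -0.40. Among all tested genes 29.0% were called lower. Sp1, a widely expressed activator at GC boxes, read 1011 ± 181 and 765 ± 37.2 on its brighter row, 1110003E12Rik, a fall of 1.32-fold (adjusted p = 0.0182 in limma). On the row SP1 it read 229 ± 28.7 and 207 ± 19.8, which did not pass (adjusted p = 0.277 in limma). Sp2 read 298 ± 71.7 and 211 ± 14.0, a fall of 1.41-fold (adjusted p = 0.0115 in limma). Neither fall passed with both SDs doubled (adjusted p = 0.289 for Sp1 and 0.243 for Sp2), the highest over their settings, whose lowest were 0.0166 and 0.0115. Klf1, Klf5, Klf8, Klf12, Klf14, Klf15 and Klf17 were detected in neither group. Klf5 read 149 ± 12.8 and 198 ± 5.82, but its detection p with RANKL was 0.45 and it was not tested.

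The kinases MEKK2, MEKK3, MEK5 and ERK5 and the MEF2 factors form a chain that induces Klf2 and Klf4 in endothelial cells. Of its 7 genes, 4 were tested, 3 were lower and 1 was higher, with a median log2 fold of -1.42. Mef2c read 955 ± 264 with M-CSF and 250.4 ± 26.02 with RANKL, a 3.81-fold fall (log2 -1.93 ± 0.17 SE), although its detection p with RANKL was 0.0386. In the unmoderated test of linear means its adjusted p was 0.0888, the highest over its settings, from 1.19e-07. Mef2a read 1234 ± 171 and 409.5 ± 47.1, a 3.014-fold fall (log2 -1.59 ± 0.13 SE). Map3k3 (MEKK3), named after its value was seen, read 2512 ± 162 and 1056 ± 55.4. Map2k5 (MEK5) went the other way, from 549 ± 29.7 to 1082 ± 100.1, a 1.97-fold rise (log2 0.98 ± 0.10 SE). The groups could not overlap for any of the 4. Among all tested genes, 57.8% were called and 50.8% could not overlap. Mapk7, the gene of ERK5 itself, Map3k2 and Mef2d were not detected.

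Cofactors of Kruppel-like factors moved in both directions. Of 10 genes, 9 were tested, of which 3 rose, 4 fell and 2 missed the threshold, at a median log2 fold of -0.02. The share called over all tested genes was 57.8%. Sin3b, a scaffold of histone deacetylase complexes, rose 1.77-fold from 639 ± 42.1 to 1133 ± 18.2 (log2 0.83 ± 0.10 SE). Its paralog Sin3a, named after its value was seen, fell by 0.28 on the log2 scale, from 1659 ± 48.5 to 1369 ± 108 (adjusted p = 0.0302 in limma). The histone acetyltransferase gene Kat2b rose 1.27-fold, and Ep300 fell 1.37-fold from 772 ± 69.2 to 563 ± 27.1. Wdr5, a subunit of histone methyltransferase complexes, fell 1.56-fold from 1855 ± 159 to 1190.4 ± 191. With both SDs doubled the adjusted p was 0.244 for Kat2b, 0.128 for Ep300 and 0.0834 for Wdr5, the highest over their settings, whose lowest were 0.0107, 0.00179 and 0.000957. Ctbp2, the partner of Klf3, read 773 ± 83.6 and 759.7 ± 39.1 and did not pass, and Ctbp1 was not detected.

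Ubiquitin ligases described as acting on these proteins changed at the RNA level as follows. Of 8 genes, all tested, 3 rose, 1 fell and 4 missed the threshold, at a median log2 fold of -0.06. Calls made up 57.8% of all tested genes, so the list lay near that share. Wwp1, which targets Klf2 and Klf5, fell 2.62-fold from 1217 ± 175 to 465 ± 22.3 (log2 -1.39 ± 0.12 SE). Smurf1, described as a ligase of Klf2, rose 1.70-fold from 192 ± 2.39 to 326 ± 31.6, and in the unmoderated test of linear means its adjusted p was 0.0501, the highest over its settings, from 1.26e-05. Its M-CSF value was near background, and subtracting background took its log2 fold from 0.76 to 1.94. Fbxo32 was not detected with M-CSF and read 342 ± 18.3 with RANKL. The fold was at least 1.73, taken against a floor of 198. This is the lowest M-CSF signal among detected genes whose detection p is a positive multiple of 1/936. Some genes, such as Nos3 at 169, were detected at lower signals with M-CSF. The rows of Stub1, a ligase and chaperone partner named after its values were seen, disagreed. Its brighter row, the one counted, read 1701 ± 162 and 1477 ± 43.2 and missed the threshold (log2 -0.20, adjusted p = 0.105 in limma). Its row 2310040B03Rik rose from 373 ± 37.7 to 513 ± 40.9 (log2 0.46, adjusted p = 0.00311 in limma).

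Genes described in other cells as targets of Kruppel-like factors were also divided. Of 12 genes, 8 were tested, of which 4 fell, 2 rose and 2 missed the threshold, beside 57.8% called over all tested genes. The median log2 fold was -0.83, or -0.67 with Arg1, which was not detected with RANKL, at its bound. Cdkn1a, the cell cycle inhibitor p21 that Klf4 and Klf6 activate, fell 3.95-fold from 3519 ± 76.2 to 891 ± 112. Cd14, a receptor of bacterial lipopolysaccharide and a described target of Klf4, fell 3.73-fold from 4998 ± 330 to 1341 ± 175. It is also a macrophage marker counted above. Thbd (thrombomodulin), a described target of Klf2 and Klf4 in endothelium and named after its value was seen, read 849 ± 91.3 and 258 ± 39.5. Itgb7, an integrin chain and a described target of Klf2 in T cells, rose 2.20-fold from 1760.4 ± 315 to 3868 ± 460.5. Nos3, the endothelial nitric oxide synthase, read 169 ± 8.41 and 216 ± 15.7, near background, a rise of 1.27-fold whose adjusted p went from 0.00478 to 0.172 with both SDs doubled (range 0.00457 to 0.172). Ccl5, the described target of Klf13, and Smad7, that of Klf10, were detected in neither group, nor were S1pr1 and Klf8.

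Klf2, Klf4, Klf6 and Klf10 are also induced within minutes to hours by stress and by handling of cells, like other immediate-early genes. Of 15 such genes, 10 were tested. The list did not move one way, with 5 falls, 4 rises, Egr2 short of the threshold, and a median log2 fold of -0.49. Over all tested genes 57.8% were called. Junb read 1885 ± 275 and 1863 ± 134, and Fosb 754 ± 59.2 and 644 ± 47.2. Both lay well above the background of 145 but missed the detection filter, with detection p-values of 0.149 and 0.312 for Junb and 0.0155 and 0.287 for Fosb. They are therefore not in these counts or the median. Atf3, a stress-induced factor, fell 11.7-fold from 2443 ± 199 to 208 ± 15.5. Its RANKL value was near background, so the size of this fall is uncertain, and subtracting background took its log2 fold from -3.55 to -5.18. Ier3, a survival gene, fell 6.61-fold from 3944 ± 244 to 596 ± 44.8. Fos, a subunit of AP-1 that osteoclast formation requires, rose 2.35-fold from 4854 ± 231 to 11406 ± 1148. Egr1 rose 1.53-fold from 667 ± 43.1 to 1019 ± 55.7. Their relation to the changes of the Kruppel-like factors was not tested.

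**Figure D5:**
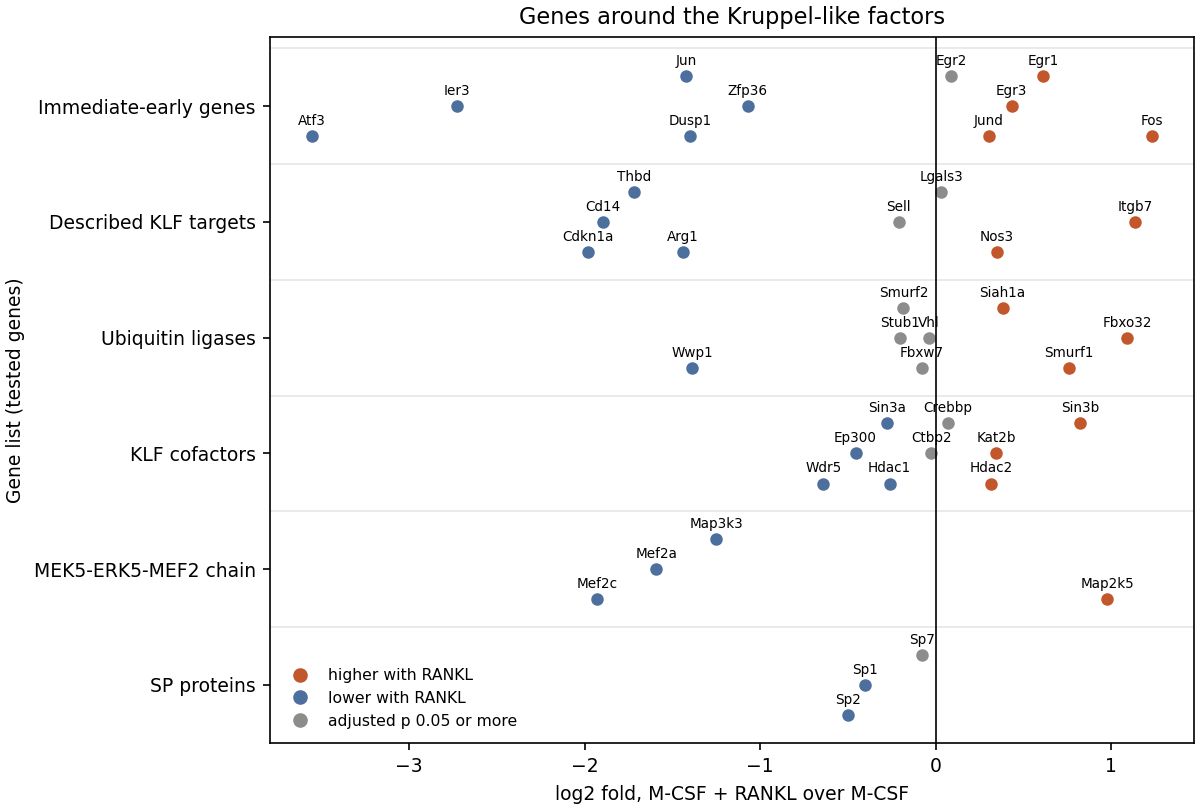
Log2 fold (M-CSF + RANKL over M-CSF) of each tested gene in 6 lists around the Kruppel-like factors, 1 point per gene, coloured by its call, with vertical offsets for legibility only. Fbxo32 and Arg1 are drawn at the ratio of their measured means although 1 group was not detected. Mef2c, Mef2a and Map3k3 lie left of 0 and Map2k5 right of it at 0.98, and the immediate-early genes spread from -3.55 (Atf3) to 1.23 (Fos).

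Markers of the other cell types were at background for most lists, apart from the granulocyte genes summed above, Cd79b and Cd8b1. Of 7 erythroid markers, which include Klf1, 2 were tested, 1 rose (Epor, 172 to 202) and 1 did not pass, with summed intensities of 1084 with M-CSF and 1122 with RANKL. The rise of Epor missed the threshold when all array genes were tested (adjusted p = 0.0517, range 0.0219 to 0.315). The 7 B cell genes summed to 1149 and 1069 with 1 lower, and the 8 T and NK cell genes to 3696 and 3090.0 with 1 lower. That gene, Cd8b1, read 2606 ± 322 and 2031 ± 141 and made up most of both sums, while its detection p was 0.0226 with M-CSF and 0.00475 with RANKL. Of 8 endothelial and stromal genes 1 was tested and did not pass (sums of 1274 and 1262), and of 3 megakaryocyte genes 0 were tested. The granulocyte genes called lower were S100a8 and S100a9, by 0.43 and 0.44 on the log2 scale, and missed the threshold with both SDs doubled (adjusted p = 0.223 and 0.229). Their lowest adjusted p-values were 0.00919 and 0.00941. All 7 tested granulocyte genes had log2 folds under 0. Prtn3 (-0.55) and Mpo (-0.47) did not pass, with SDs from 44.9% to 54.8% of the mean. The part of these cells in the changes of the Kruppel-like factors was not tested.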

How the data were processed

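RNA from 2 culture groups was hybridised to Illumina bead arrays, and per the labels each group is the mean of 3 biological replicates, each on its own array. Single arrays were not analysed here. For each array gene and group, the deposited table gives a normalized intensity (linear), the SD between arrays and a detection p-value. It also holds the authors' ratio of the means, which equals RANKL over M-CSF in all 31492 array genes although its header names the inverse, and it was not used. The sources used here do not give the normalization, the software or the array version. The labels call the replicates biological but do not say whether separate mice, sorts or cultures were used. The tests therefore reflect only the scatter among these arrays, and how much of it lies between animals is not known. With 3 arrays per group the precision is limited. A further deposited table repeats the means.

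Names were matched to symbols with the RefSeq table of GRCm38.p6 (13430 by symbol, 8112 by a single synonym). For listed genes with several rows the brightest was used. The log2 ratio of means was tested with a variance from the SDs (delta method, pooled on 4 degrees of freedom), moderated in limma 3.58.1 (squeezeVar with intensity trend, prior degrees of freedom 7.49) under R 4.3.3, two-sided, with Benjamini-Hochberg adjustment over the 11012 array genes detected (p under 0.01) in either group. The test was checked on simulated data. Named genes were all members and, for each list, the 2 largest called rises and falls. Genes detected in neither group were named without a fold, with intensities given for Klf5, Junb and Fosb. Sp7, Ctbp2, Egr2 and Arg1 were named beyond this rule, as were the genes marked as named after their values were seen. Members, lists and letters were chosen with earlier results of these data known. The lists were further family members, the MEK5-ERK5-MEF2 chain, cofactors, ubiquitin ligases, described targets, immediate-early genes and 8 sets of cell type markers. Folds against an undetected group that lay under the lowest detected signal (198 with M-CSF, 196 with RANKL) are lower bounds. Alternatives changed the detection filter, the SDs, the intensity trend, the test (unmoderated, on linear means), background, centring and pseudocount.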

Additional observations from a re-analysis of the deposited data

How the results depend on the processing

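Across the 9 alternatives, the 10 tested rows of Kruppel-like factors gave 90 values. Of these, 82 kept the side of the threshold and 8 lost the call. No direction changed, but this was not a test of direction. Changing the filter, SDs, trend or test leaves the fold as it is. The changes of background, centring and pseudocount could hardly reverse it. The number called among the 6 rows found by name was 5, or 4 with both SDs doubled (Klf13 lost) and 4 in the unmoderated test of linear means (Klf2 lost). Among all 13 array rows it was 9, against 4 with both SDs doubled and 6 in the unmoderated test. Over all genes, 6369 were called (3190 lower), 3054 (1517 lower) with both SDs doubled and 3868 (1861 lower) in the unmoderated test. That test changes both the scale and the moderation, and the cause of its losses was not tested, whereas doubling the SDs widens each error by construction. For the named genes of the lists, 23 of 256 values lost the call, and direction was likewise not put to a test. No paired analysis was possible because the files hold only group means, and no replicate could be left out for the same reason. Signal at background left Klf10 and Klf11 without a fold.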
